A study of Rattus norvegicus with 16 samples.

Results

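Collagen genes were read in kidney cortex of male rats injected with ferric nitrilotriacetate (Fe-NTA), an iron chelate that injures the proximal tubule by oxidation. The collagens are all genes whose name in the scanner files is Col, a number, a and a number. They come to 44 genes on 80 probes, of 34723 gene names on the array. By class, 11 are fibrillar, 6 are the basement membrane chains of type IV and 27 are other collagens. A gene could be tested when all arrays of some group had a probe of it well above background. This left 27 collagens, 10 fibrillar, 6 of type IV and 11 other, among 16023 genes tested.

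Collagens are trimers of long chains wound into a triple helix. Fibrillar collagens build the fibres of interstitial tissue and of scars, type IV chains build the sheet-like networks of basement membranes, and most others link, coat or anchor these structures. In the kidney the type IV network of the mature glomerular filter differs from that of most other basement membranes, and deposited fibrillar collagen is the classic sign of renal fibrosis.

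The study compared Jcl:SD wild-type rats with Jcl:SD BRCA1+/- rats, which carry 1 intact copy of a DNA repair gene. The sources used here do not give the kind of mutation. Each genotype had 2 arrays of untreated cortex, 3 arrays after 1 week of Fe-NTA and 3 arrays after 3 weeks, 16 single-colour Agilent arrays in all. Treated rats were 4 weeks old at their first intraperitoneal dose. Week 1 had 2 doses of 5 mg iron/kg and 3 of 7 mg iron/kg, and each later week had 5 doses of 10 mg iron/kg. Cortex was collected 48 h after the last dose. For the untreated rats the labels give no age, vehicle or day, so age and treatment cannot be told apart against controls. Time, age and dose cannot be told apart between 3 weeks and 1 week.

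Values are scaled log2 signals, the processed signal on the log2 scale less its 75th percentile on that array, and they rank a gene between arrays but not against another gene. Well above background is the scanner software's own flag. Between 32.8% and 60.5% of probes carried it, and no spot was saturated. The 75th percentile of processed signal was 20.1 to 25.0 intensity units in wild-type controls, 25.2 to 59.6 and 37.4 to 77.2 in treated wild-type groups, and 35.2 to 78.5 over all BRCA1+/- arrays. Wild-type controls were thus the dimmest arrays; the part of this in the results was not tested. Arrays of a group correlated at r 0.964 to 0.981 across genes, except wild-type 1-week replicate 3, which stood apart from its group at 0.905 and 0.908. All 10 proximal tubule markers checked were above the filter, and their summed level was below the controls on every treated array. Whether arrays within a group stand for different rats is not in the labels, and p-values measure the spread between these samples. In bulk tissue, fewer cells of a type and less RNA per cell cannot be told apart.

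Against the controls of their genotype, most collagens that changed were higher after Fe-NTA. A gene is called changed at an adjusted p under 0.05 (limma, Benjamini-Hochberg over all 16023 genes). After 1 week in wild-type cortex 9 of 27 collagens rose and 4 fell, where 27.1% of all genes tested were called (12.8% higher and 14.3% lower). After 3 weeks 12 rose and 3 fell, against 14.3% of all genes (8.76% higher and 5.53% lower). After 1 week BRCA1+/- cortex had 8 higher and 2 lower, against 7.45% of all genes (4.25% higher and 3.2% lower). After 3 weeks 14 rose and 3 fell, against 15.9% (9.35% higher and 6.52% lower). These are 48.1%, 55.6%, 37.0% and 63.0% of the 27 collagens, each above the share of all genes called. Col16a1, Col8a1, Col6a5 and Col11a1 passed the filter only through treated groups, so the filter favours a rise in these genes. The same filter was applied to all genes.

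The medians ran the same way, and here as elsewhere 4 values in a row follow the order wild-type 1 and 3 weeks, then BRCA1+/- 1 and 3 weeks. The median log2 change of the 27 collagens was 0.71 and 1.00 in wild-type cortex after 1 and 3 weeks and 0.62 and 1.35 in BRCA1+/- cortex. Over all genes tested it was -0.02, -0.02, -0.03 and 0.01. With genes under background in the controls set at their bound (explained with Col16a1), the wild-type 1-week median was 0.37 and the others stayed as given. Both comparisons of a genotype use the same control arrays, so they are not independent. In all, 19 collagens were called in at least 1 of the 4 comparisons, 14 of them higher and 5 lower, and 8 in none.

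The counts depended on single arrays. Without wild-type control replicate 2, 6 and 5 collagens were called in wild-type cortex after 1 and 3 weeks, and 9 after 3 weeks without control replicate 1. Without wild-type 1-week replicate 3, the array that stood apart, 15 were called after 1 week. After 1 week in BRCA1+/- cortex, 3 and 5 were called without control replicates 1 and 2, 5 without 1-week replicate 1 and 6 without 1-week replicate 2. After 3 weeks 10 and 11 were called without BRCA1+/- control replicates 1 and 2. The arrays lay on 2 slides, with 1 or 2 arrays of each group on each. With slide as a block all 55 called values of the collagens named here stayed called. Within each slide alone, all 55 kept their direction, while in the order above 6, 4, 0 and 2 collagens were called within slide 1 and 0, 0, 0 and 4 within slide 2. Of the 55 calls, 23 held without each array in turn, and the arrays that ended the others are named with each gene. Among other settings, testing the genes without the filter on dim probes, which tests more genes, ended 20 of the 55 calls, fitting only the groups compared 6 and averaging the probes of a gene 2. Normexp background correction ended 8, in Col16a1, Col5a1, Col6a1, Col6a2, Col6a6 and Col8a1, and raising faint values to a detection limit ended 5, in Col16a1, Col6a6 and Col8a1. Quantile normalization, array weights and the replicate block ended 1 each.

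**Figure D1:**
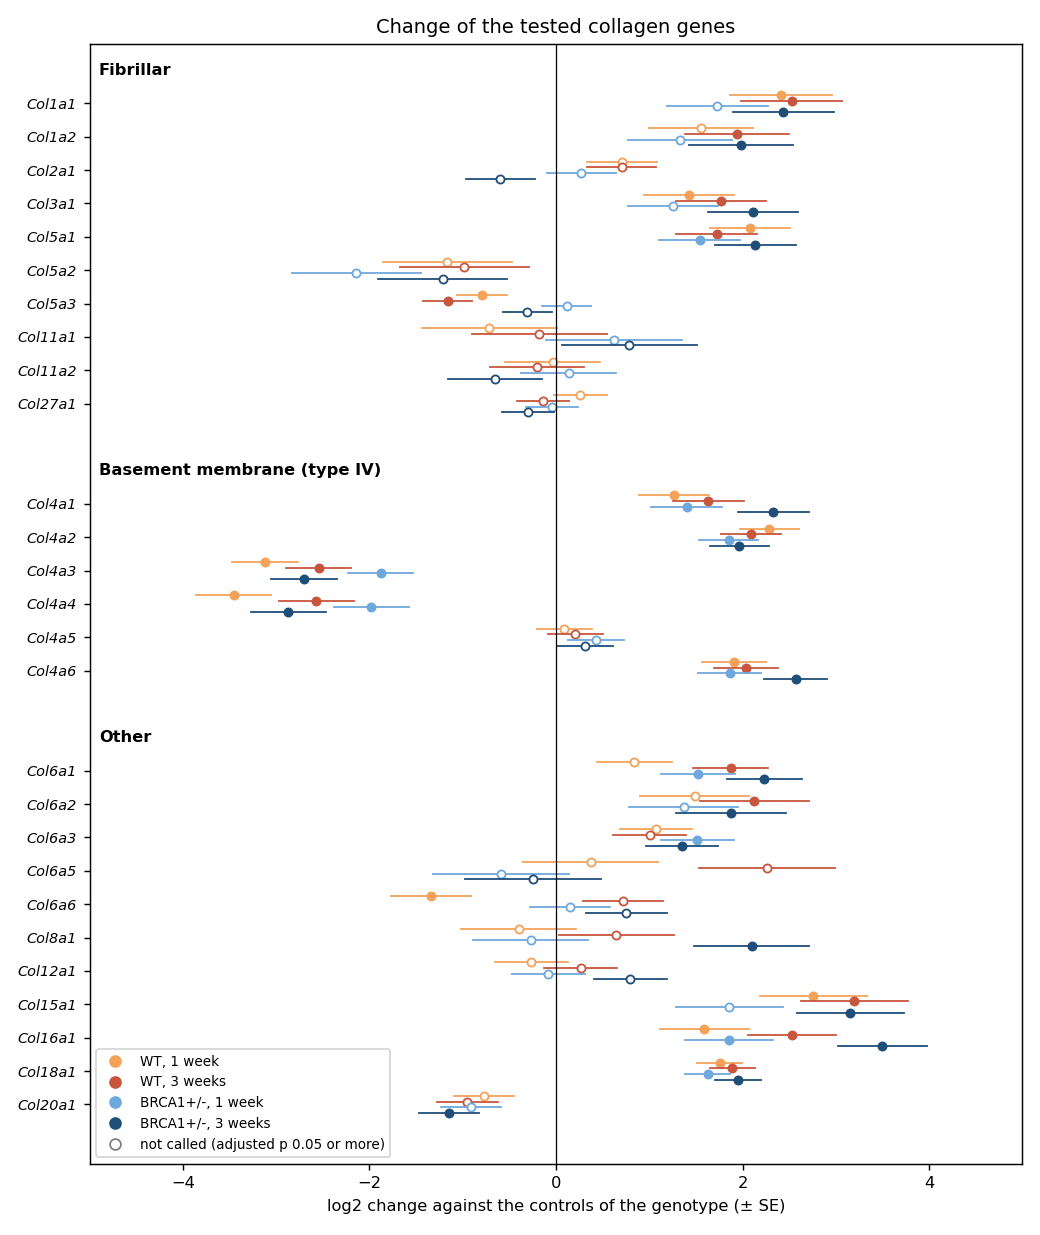
Log2 change with its SE for each of the 27 tested collagens (vertical axis, by class) against the controls of the same genotype, wild-type (WT) or BRCA1+/-, at 1 and 3 weeks; filled points are called at an adjusted p under 0.05. Col4a3 and Col4a4 lie between -3.45 and -1.88, while Col4a1, Col4a2, Col4a6 and Col18a1 lie to the right of 0; for genes under background in the controls, such as Col16a1, the plotted change is a fitted value and no bound.

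Among fibrillar collagens, those of types I and III and the Col5a1 chain of type V were higher in treated cortex. In wild-type cortex 3 of 10 rose and 1 fell after 1 week, and 4 rose and 1 fell after 3 weeks. The BRCA1+/- cortex had 1 higher after 1 week, which was Col5a1, and 4 higher after 3 weeks. These are 40%, 50%, 10% and 40% called, against 27.1%, 14.3%, 7.45% and 15.9% of all genes. The BRCA1+/- share after 1 week was thus near that of all genes. The medians of the 10 were 0.48 and 0.28 in wild-type cortex, or 0.27 and 0.06 with Col2a1 at its bound, and 0.45 and 0.24 in BRCA1+/- cortex. The wild-type call lower was Col5a3 both times.

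Col1a1 and Col1a2 encode the chains of type I collagen, the main fibre of interstitial scar. The scaled log2 signal of Col1a1 was 2.22 and 1.70 in wild-type controls, 5.23, 4.25 and 3.64 after 1 week and 5.46, 3.75 and 4.25 after 3 weeks. Col1a1's BRCA1+/- values were 2.17 and 2.91, then 5.00, 4.07 and 3.75, then 5.40, 4.44 and 5.11. Every treated array lay above every control array of either genotype, and replicate 1 was the highest of its group in all 4 treated groups. Col1a1 rose by 2.41 ± 0.54 (log2 change ± SE, adjusted p = 0.0042) and 2.52 ± 0.54 (0.0067) in wild-type cortex. The BRCA1+/- change was 1.73 ± 0.54 after 1 week (0.068, not called) and 2.44 ± 0.54 after 3 weeks (0.0086). The wild-type calls were lost without control replicate 2 (log2 change 2.15 and 2.26, adjusted p = 0.054 and 0.085), and the BRCA1+/- call without control replicate 1 (log2 change 2.07, adjusted p = 0.10).

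Col1a2 was likewise higher on treated arrays. It read 3.88 and 3.32 in wild-type controls, 6.17, 4.73 and 4.56 after 1 week and 6.56, 4.80 and 5.25 after 3 weeks, and in BRCA1+/- cortex 3.85 and 4.14, then 6.04, 5.18 and 4.74, then 5.67, 5.68 and 6.58. No treated array overlapped its controls. The changes were 1.55 ± 0.56 (adjusted p = 0.051, not called) and 1.94 ± 0.56 (0.031) in wild-type cortex, and 1.33 ± 0.56 (0.16, not called) and 1.98 ± 0.56 (0.027) in BRCA1+/- cortex. The wild-type call was lost without any of control replicates 1 or 2 or 3-week replicates 1 or 3 (log2 change 1.42 to 2.22, adjusted p 0.052 to 0.22), and the BRCA1+/- call without any of control replicates 1 or 2 or 3-week replicate 3 (log2 change 1.68 to 2.12, adjusted p 0.10 to 0.16).

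Col3a1, the chain of type III collagen that shares fibres with type I, read 1.64 and 1.79 in wild-type controls, 3.95, 2.15 and 3.31 after 1 week and 3.96, 2.71 and 3.77 after 3 weeks. The BRCA1+/- arrays of Col3a1 read 2.16 and 1.92, then 3.65, 3.55 and 2.70, then 4.49, 3.71 and 4.25. Wild-type 1-week replicate 2 came nearest to the controls without reaching them. Its changes were 1.42 ± 0.48 (adjusted p = 0.040) and 1.77 ± 0.48 (0.025) in wild-type cortex, and 1.26 ± 0.48 (0.13, not called) and 2.11 ± 0.48 (0.010) in BRCA1+/- cortex. After 1 week the wild-type call was lost without any of control replicates 1 or 2 or 1-week replicates 1 or 3 (log2 change 1.02 to 1.50, adjusted p 0.077 to 0.17). After 3 weeks it was lost without any of control replicates 1 or 2 or 3-week replicates 1 or 3 (log2 change 1.52 to 1.84, adjusted p 0.076 to 0.13), and the BRCA1+/- call without any of control replicates 1 or 2 (log2 change 1.99 to 2.23, adjusted p 0.057 to 0.084).

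Col5a1 encodes a chain of type V collagen, which starts and limits the growth of type I fibres. It read -0.87 and -1.17 in wild-type controls, 1.79, 0.63 and 0.75 after 1 week and 1.41, 0.51 and 0.19 after 3 weeks. The BRCA1+/- cortex read -0.98 and -0.67, then 1.26, 0.59 and 0.29, then 1.33, 0.82 and 1.78. All controls were below 0 on this scale and all treated arrays above it. It rose by 2.08 ± 0.43 (adjusted p = 0.0025) and 1.72 ± 0.43 (0.016) in wild-type cortex and by 1.54 ± 0.43 (0.043) and 2.14 ± 0.43 (0.0049) in BRCA1+/- cortex. The wild-type call at 1 week held without each array. At 3 weeks it was lost without any of control replicates 1 or 2 or 3-week replicate 1 (log2 change 1.37 to 1.87, adjusted p 0.061 to 0.14). The BRCA1+/- call at 1 week was lost without any of control replicates 1 or 2 or 1-week replicates 1, 2 or 3 (log2 change 1.27 to 1.75, adjusted p 0.059 to 0.25), and that at 3 weeks without control replicate 1 (log2 change 1.98, adjusted p = 0.058).

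Col5a3, another type V chain, was lower in treated wild-type cortex. It read -0.17 and -0.40 in controls, -1.26, -1.10 and -0.88 after 1 week and -1.61, -1.63 and -1.10 after 3 weeks, with no overlap. Its BRCA1+/- values were -1.003 and -1.014, then -1.21, -0.69 and -0.78, then -1.03, -1.56 and -1.36, so that these controls already lay among the treated arrays. Col5a3 fell in wild-type cortex with a log2 change of -0.79 ± 0.26 (adjusted p = 0.037) and -1.16 ± 0.26 (0.0095). Its BRCA1+/- changes were 0.11 ± 0.26 (0.85) and -0.31 ± 0.26 (0.42), neither called. The difference between genotypes in these changes was 0.91 (95% interval 0.11 to 1.71, adjusted p = 0.57) at 1 week and 0.85 (0.06 to 1.65, adjusted p = 0.98) at 3 weeks. The wild-type calls were lost without any of control replicates 1 or 2 or 1-week replicates 1 or 2 (log2 change -0.91 to -0.68, adjusted p 0.065 to 0.21) at 1 week and any of control replicates 1 or 2 (log2 change -1.27 to -1.05, adjusted p 0.052 to 0.088) at 3 weeks.

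The other tested fibrillar genes, Col2a1 and the type XI genes Col11a1 and Col11a2 of cartilage, Col27a1 and Col5a2, were called in none of the 4 comparisons. Their log2 changes ran from -2.14 (Col5a2) to 0.78 (Col11a1), both in BRCA1+/- cortex. Col2a1 was well above background on no wild-type control array. The remaining fibrillar gene, Col24a1, was not tested.

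**Figure D2:**
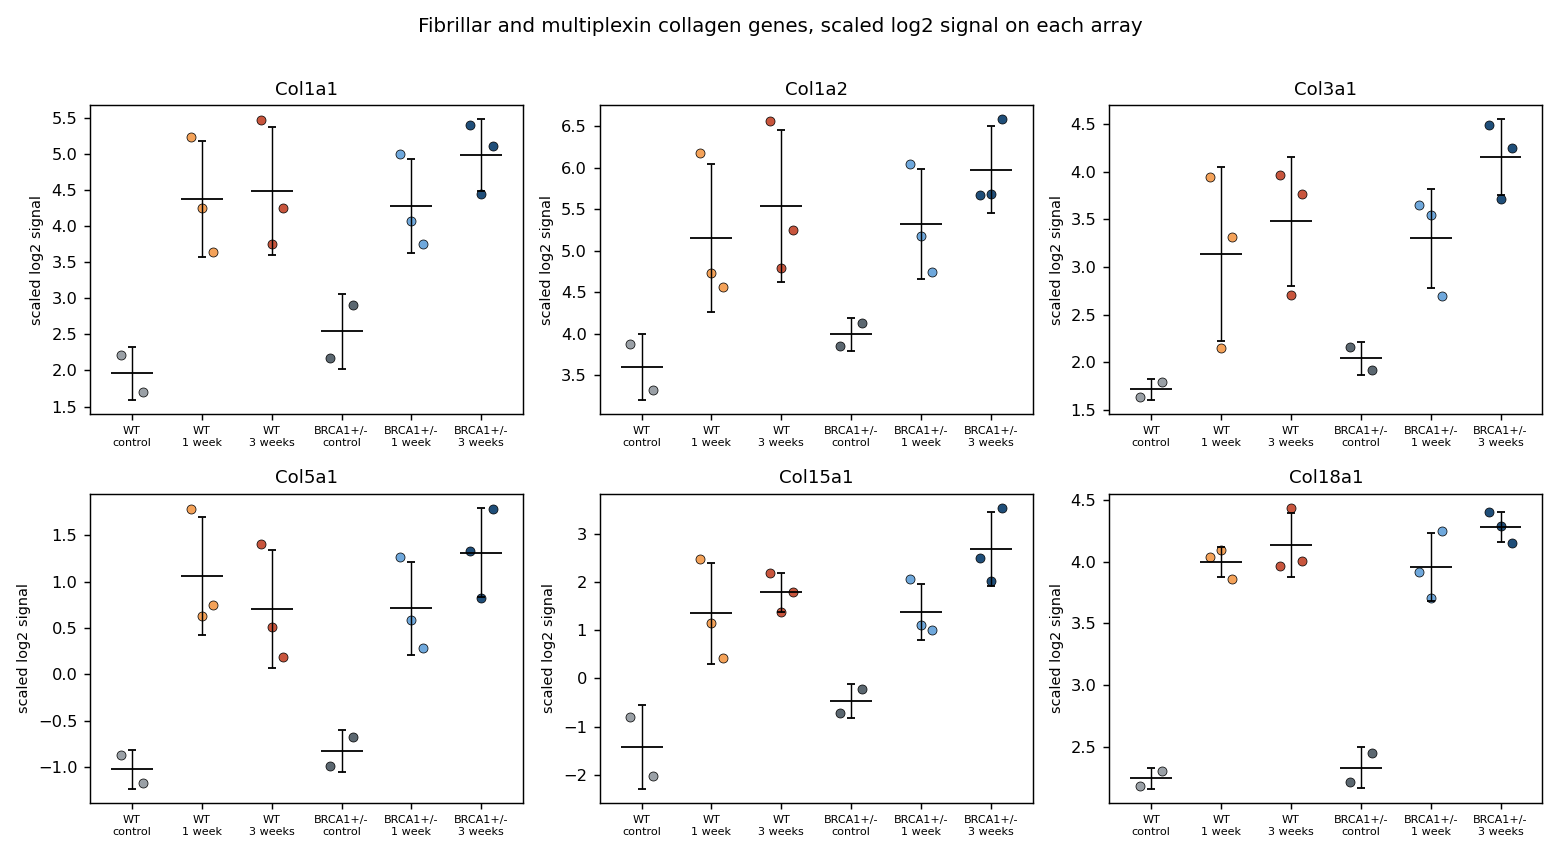
Scaled log2 signal on each array (points) for 4 fibrillar genes (Col1a1, Col1a2, Col3a1 and Col5a1) and 2 multiplexin genes (Col15a1 and Col18a1) in the 6 groups, with group means (long bars) and SD (whiskers); each panel has its own vertical scale. In these genes the treated arrays of a genotype lie above its controls, Col18a1 with the tightest groups.

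Col5a2 was read by probes that went opposite ways. Per the file headers both lie on rn4, the one used at chr9:44374155-44374214 and the other at chr9:44374113-44374172, and they share 18 bases. The probe with the higher mean, used in the fit, read 3.78 and 2.86 in wild-type controls, 2.03, 3.10 and 1.32 after 1 week and 2.55, 2.26 and 2.19 after 3 weeks, and in BRCA1+/- cortex 3.91 and 5.57, then 2.83, 1.97 and 2.99, then 5.01, 2.31 and 3.25. The other read -1.09 and -1.21, then 1.63, 0.54 and -0.11, then 2.21, 1.66 and 1.52 in wild-type cortex and -0.48 and -0.31, then 1.32, 0.81 and 0.12, then 2.32, 1.92 and 3.05 in BRCA1+/- cortex. The first was mostly lower in treated arrays with wide spread, and the second was above its controls on every treated array. Their log2 changes, in the order wild-type 1 and 3 weeks and BRCA1+/- 1 and 3 weeks, were -1.16, -0.98, -2.14 and -1.22 for the first and 1.84, 2.95, 1.14 and 2.82 for the second. A direction for Col5a2 can therefore not be given. Of 9 collagens with several probes past the filter, 3 had probes of opposite sign in at least 1 comparison, Col5a2, Col12a1 and Col20a1.

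**Figure D3:**
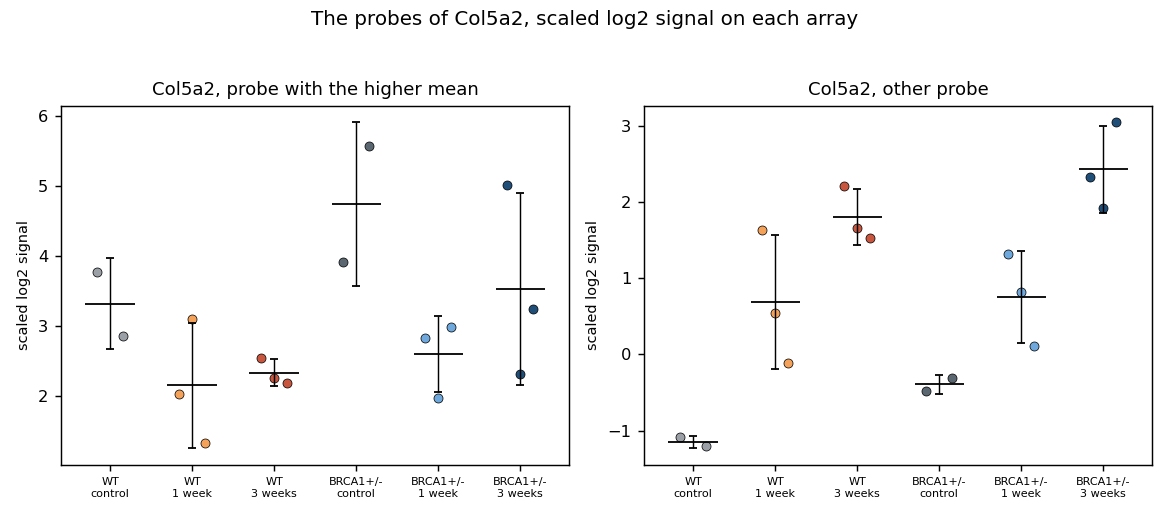
Scaled log2 signal on each array (points) of the probes of Col5a2 in the 6 groups, with group means (long bars) and SD (whiskers); left, the probe used, right, the other probe. The right panel shows every treated array above the controls of its genotype, while on the left the BRCA1+/- controls are among the highest arrays.

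Type IV collagen split by gene. Col4a1, Col4a2 and Col4a6 rose and Col4a3 and Col4a4 fell in each of the 4 comparisons, and Col4a5 was called in none. So 5 of 6 (83.3%) were called each time, 3 higher and 2 lower, against 27.1%, 14.3%, 7.45% and 15.9% of all genes. The medians of the 6 were 0.68, 0.92, 0.92 and 1.14, which average over opposite directions.

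The 6 genes lie in 3 head-to-head pairs, each pair reading away from a shared stretch of DNA. In the RefSeq promoter table for build GRCr8, Col4a2 and Col4a1 start 76 bases apart on chromosome 16, Col4a4 and Col4a3 412 bases apart on chromosome 9, and Col4a6 and Col4a5 1414 bases apart on chromosome X. Members of the first pair both rose and those of the second both fell. In the third, on the probes used, Col4a6 rose and Col4a5 was not called, and their other probes are given with their values. The stretch between the starts of the first pair, chr16:84885521-84885596, is shown whole on the plus strand. For the other genes the 250 bases before the start are shown on the gene's own strand, chr9:91323740-91323989 (plus) for Col4a3, chr9:91323578-91323827 (minus) for Col4a4, chrX:109905945-109906194 (minus) for Col4a6 and chrX:109907109-109907358 (plus) for Col4a5. Capitals mark the GC box GGGCGG and the Smad box letters CAGACA on either strand.
Col4a2 and Col4a1: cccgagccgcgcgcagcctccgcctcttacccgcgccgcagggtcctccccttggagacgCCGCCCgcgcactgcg
Col4a3: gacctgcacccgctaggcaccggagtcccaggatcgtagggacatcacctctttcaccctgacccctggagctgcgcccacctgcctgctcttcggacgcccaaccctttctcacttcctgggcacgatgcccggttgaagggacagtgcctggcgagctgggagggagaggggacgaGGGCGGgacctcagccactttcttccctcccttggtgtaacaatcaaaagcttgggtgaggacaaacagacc
Col4a4: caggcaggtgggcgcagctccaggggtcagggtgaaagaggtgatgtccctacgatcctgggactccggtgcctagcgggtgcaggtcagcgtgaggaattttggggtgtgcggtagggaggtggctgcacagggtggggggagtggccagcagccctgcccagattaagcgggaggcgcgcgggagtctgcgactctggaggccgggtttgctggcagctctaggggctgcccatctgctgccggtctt
Col4a6: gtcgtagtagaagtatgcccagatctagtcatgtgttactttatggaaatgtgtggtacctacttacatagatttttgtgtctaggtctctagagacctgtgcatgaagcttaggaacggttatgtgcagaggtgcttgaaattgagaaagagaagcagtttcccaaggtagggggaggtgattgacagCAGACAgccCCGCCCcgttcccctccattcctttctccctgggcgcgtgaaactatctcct
Col4a5: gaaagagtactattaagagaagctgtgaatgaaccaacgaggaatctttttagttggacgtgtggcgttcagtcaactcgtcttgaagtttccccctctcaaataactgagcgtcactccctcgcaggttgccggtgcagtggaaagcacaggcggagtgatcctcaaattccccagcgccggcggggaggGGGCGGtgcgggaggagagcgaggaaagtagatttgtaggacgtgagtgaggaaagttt

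These stretches were searched on both strands for 5 motifs, none of which contains another: the TATA box (TATAAA), the letters CCAAT, the GC box (GGGCGG), the letters of an AP-1 site (TGANTCA) and those of a Smad box (CAGACA). None held a TATA box, CCAAT or the AP-1 letters, which 12.9%, 34.0% and 6.34% of all 33469 promoters in the table hold in the same 250 bases, and 4.61%, 13.0% and 1.8% in 76 bases. GGGCGG occurred once each before Col4a3, Col4a6 and Col4a5 and not before Col4a4, and 30.5% of promoters hold it. It also occurred once in the 76 bases between Col4a2 and Col4a1, where 18.1% of promoters hold it in the 76 bases before the start. CAGACA occurred before Col4a6, and 17.2% of promoters hold it. The 76 bases were 78.9% G or C, against 62.0% for Col4a3, 66.4% for Col4a4, 48.0% for Col4a6 and 52.8% for Col4a5. Matches of letters describe these windows and do not show binding.

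Col4a1 and Col4a2 encode the chains of the type IV network found in nearly all basement membranes. Their probes lie on rn4 at chr16:83157776-83157835 and chr16:82900301-82900360. Col4a1 read 4.01 and 3.86 in wild-type controls, 5.80, 5.36 and 4.44 after 1 week and 5.93, 5.60 and 5.17 after 3 weeks. Among BRCA1+/- arrays it read 3.58 and 3.74, then 5.56, 4.95 and 4.67, then 5.93, 5.72 and 6.32. The controls lay close together and below every treated array, of which wild-type 1-week replicate 3 was the lowest. Col4a1 rose by 1.26 ± 0.38 (adjusted p = 0.022) and 1.63 ± 0.38 (0.010) in wild-type cortex, and by 1.40 ± 0.38 (0.036) and 2.33 ± 0.38 (0.0011) in BRCA1+/- cortex. The wild-type calls were lost without any of control replicates 1 or 2 or 1-week replicates 1 or 2 (log2 change 0.96 to 1.34, adjusted p 0.052 to 0.13) at 1 week and any of control replicates 1 or 2 (log2 change 1.55 to 1.71, adjusted p 0.053 to 0.095) at 3 weeks. The BRCA1+/- call at 1 week was lost without any of control replicates 1 or 2 or 1-week replicates 1 or 2 (log2 change 1.15 to 1.48, adjusted p 0.058 to 0.22), and no array ended the call at 3 weeks.

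Col4a2, its partner chain, read 0.04 and 0.41 in wild-type controls, 2.59, 1.96 and 2.98 after 1 week and 2.67, 2.22 and 2.05 after 3 weeks. For Col4a2, BRCA1+/- arrays read 0.42 and 0.56, then 2.28, 2.39 and 2.35, then 2.78, 2.01 and 2.56. Treated arrays all lay above the controls and overlapped each other across times and genotypes. The rise was 2.29 ± 0.32 (adjusted p = 0.00013) and 2.09 ± 0.32 (0.00081) in wild-type cortex, and 1.85 ± 0.32 (0.0029) and 1.96 ± 0.32 (0.0011) in BRCA1+/- cortex. Each of these 4 calls held without each array in turn.

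Col4a3 and Col4a4, together with Col4a5, encode the network of the glomerular filter that is altered in Alport syndrome. Their probes lie on rn4 at chr9:82036908-82036967 and chr9:81788904-81788963. Col4a3 read 2.47 and 2.48 in wild-type controls, -1.07, -0.19 and -0.68 after 1 week and -0.63, -0.03 and 0.45 after 3 weeks. The BRCA1+/- cortex read 2.55 and 2.25, then 0.46, 0.99 and 0.10, then -0.55, -0.11 and -0.25. All 4 controls lay above 2 and no treated array reached 1. The log2 change was -3.12 ± 0.35 (adjusted p = 2.6e-05) and -2.54 ± 0.35 (0.00039) in wild-type cortex, and -1.88 ± 0.35 (0.0049) and -2.70 ± 0.35 (0.00022) in BRCA1+/- cortex, or 8.69-, 5.83-, 3.69- and 6.51-fold lower. Within slides the wild-type 1-week change was -3.35 and -2.66. Over all settings the smallest log2 changes were -1.71, -1.50, -1.23 and -1.61, so the size of the fall depended on the processing. The BRCA1+/- call at 1 week was lost without control replicate 1 (log2 change -1.73, adjusted p = 0.070), and no array ended the other 3 calls.

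Col4a4 read 4.44 and 4.53 in wild-type controls, 1.31, 0.75 and 1.04 after 1 week and 1.99, 1.67 and 2.09 after 3 weeks. On BRCA1+/- arrays Col4a4 read 4.66 and 4.06, then 2.16, 3.36 and 1.61, then 1.15, 1.63 and 1.67. All controls lay above 4, and the treated array nearest to them was BRCA1+/- 1-week replicate 2, which was also the highest treated array for Col4a3. The log2 change was -3.45 ± 0.40 (adjusted p = 3.4e-05) and -2.57 ± 0.40 (0.00097) in wild-type cortex, and -1.98 ± 0.40 (0.0086) and -2.87 ± 0.40 (0.00038) in BRCA1+/- cortex. All 4 probes of Col4a4 were lower in each comparison. The BRCA1+/- call at 1 week was lost without control replicate 1 (log2 change -1.68, adjusted p = 0.11), and no array ended the others.

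Podocytes make the glomerular network, so their markers are given beside these genes. All 7 podocyte markers of the list were tested. In the order above 0, 1, 0 and 1 of the 7 rose and 1, 0, 1 and 1 fell, or 14.3%, 14.3%, 14.3% and 28.6% called, against 27.1%, 14.3%, 7.45% and 15.9% of all genes. The median change of the 7 was -0.18, 0.06, -0.33 and -0.65. Their summed linear signal was 31.5 to 41.6 in wild-type controls, 20.6 to 33.3 after 1 week and 30.6 to 34.9 after 3 weeks, and in BRCA1+/- cortex 49.8 to 51.0, then 21.9 to 39.4, then 24.6 to 37.0. It was thus below the controls on all treated BRCA1+/- arrays and overlapped them in wild-type cortex. The brightest probes can set such a sum, for these and for the other markers. The part of this shift in the fall of Col4a3 and Col4a4 was not tested.

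Col4a5 read 1.22 and 0.91 in wild-type controls, 1.21, 0.91 and 1.35 after 1 week and 1.00, 1.20 and 1.62 after 3 weeks. Arrays of BRCA1+/- cortex read 1.05 and 0.70, then 1.24, 1.75 and 0.93, then 1.51, 1.04 and 1.00. Treated and control arrays overlapped in both genotypes. Its changes were 0.09 ± 0.30, 0.21 ± 0.30, 0.43 ± 0.30 and 0.31 ± 0.30, with adjusted p 0.86, 0.69, 0.43 and 0.48, and the highest 95% interval was -0.21 to 1.07. Its other probe past the filter, above background on 11 of 16 arrays, changed by 0.78, 0.82, 0.79 and 0.57. With the mean of both probes the changes were 0.43, 0.51, 0.61 and 0.44, none called.

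Col4a6 encodes a chain that joins Col4a5 in the basement membrane of Bowman's capsule and smooth muscle. It read -0.68 and -0.74 in wild-type controls, 1.53, 1.64 and 0.43 after 1 week and 1.66, 1.39 and 0.94 after 3 weeks. The BRCA1+/- controls, 1-week and 3-week arrays read -0.62 and -0.58, then 1.29, 1.04 and 1.47, then 1.87, 1.79 and 2.25. On the probe used all controls lay below 0 and all treated arrays above it, with wild-type 1-week replicate 3 the lowest. Col4a6 rose by 1.91 ± 0.34 (adjusted p = 0.00082) and 2.04 ± 0.34 (0.0014) in wild-type cortex and by 1.86 ± 0.34 (0.0043) and 2.57 ± 0.34 (0.00025) in BRCA1+/- cortex. No single array ended any of these 4 calls. The other probe of Col4a6 past the filter changed less, by 0.72, 0.53, 0.29 and 0.15. With the mean of both probes the changes were 1.31, 1.28, 1.08 and 1.36, all called. On these other probes Col4a5 changed by more than Col4a6 in each comparison, so the probes do not settle which gene of the pair changed more.

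**Figure D4:**
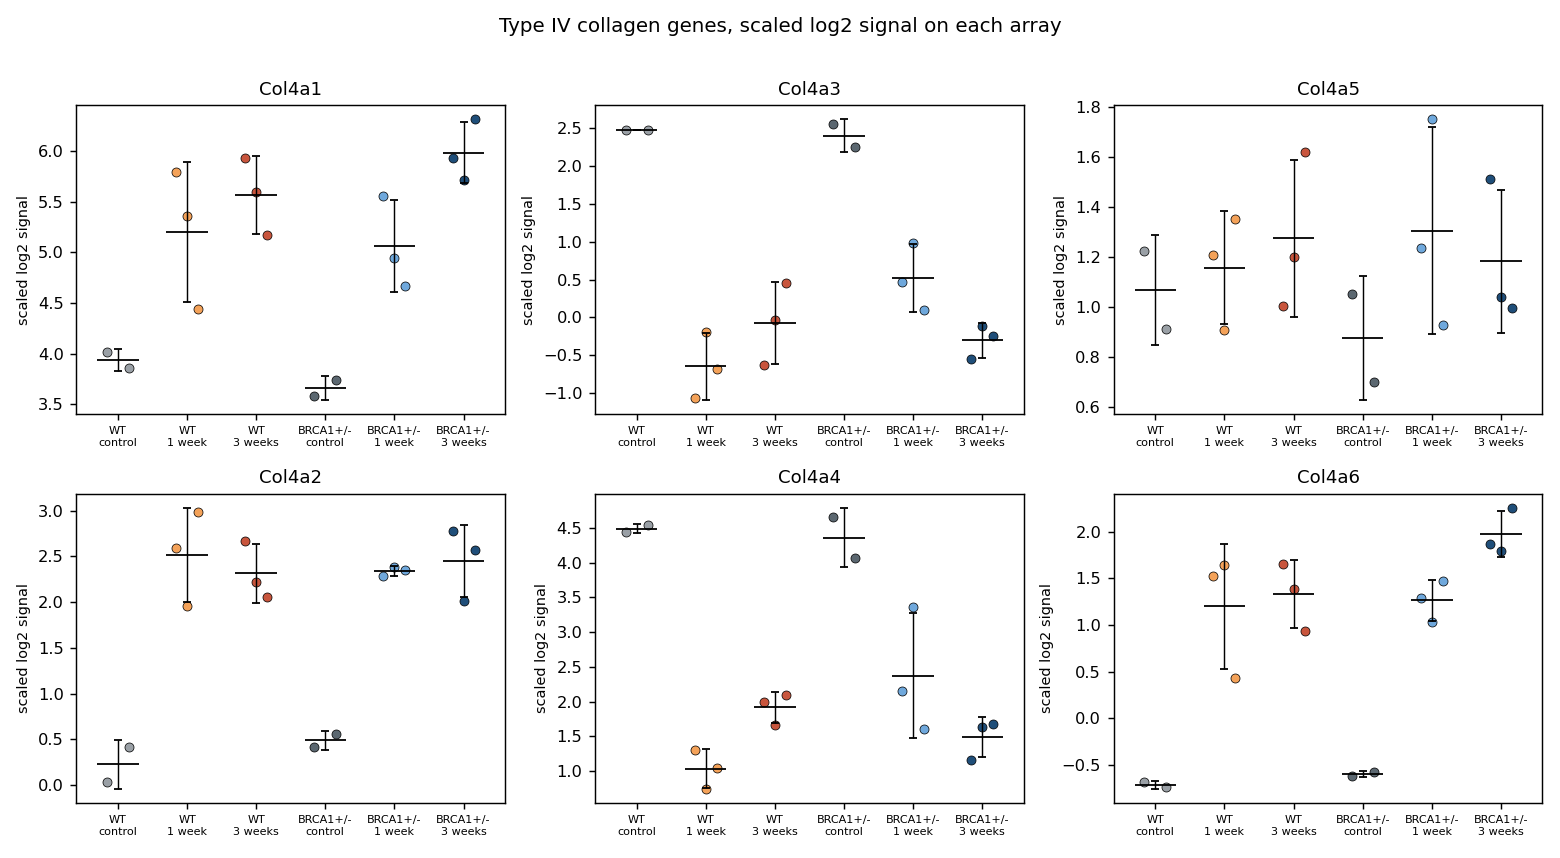
Scaled log2 signal on each array (points) for the 6 type IV genes in the 6 groups, with group means (long bars) and SD (whiskers); columns hold the head-to-head pairs, and each panel has its own vertical scale. Controls are the lowest groups for Col4a1, Col4a2 and Col4a6 and the highest for Col4a3 and Col4a4, and groups overlap for Col4a5.

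Of the 11 other collagens tested, 3 rose and 1 fell in wild-type cortex after 1 week and 5 rose and none fell after 3 weeks. Among them 4 rose in BRCA1+/- cortex after 1 week, and 7 rose and 1 fell after 3 weeks. These are 36.4%, 45.5%, 36.4% and 72.7% called, against 27.1%, 14.3%, 7.45% and 15.9% of all genes. The shares include Col16a1, Col8a1 and Col6a5, which passed the filter only through treated groups, so the filter favours a rise in them. The medians of the 11 were 0.84, 1.87, 1.37 and 1.87, or 0.45, 1.39, 1.37 and 1.39 with genes under background in the controls at their bound. Those called higher in at least 1 comparison were the multiplexins Col15a1 and Col18a1, the fibril-associated Col16a1, the chains Col6a1, Col6a2 and Col6a3 of type VI, and Col8a1.

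Col18a1 encodes a collagen of basement membrane zones whose end fragment is endostatin. It read 2.19 and 2.30 in wild-type controls, 4.04, 4.09 and 3.86 after 1 week and 3.96, 4.43 and 4.01 after 3 weeks. With BRCA1+/- rats it read 2.21 and 2.45, then 3.91, 3.71 and 4.25, then 4.40, 4.29 and 4.15. Controls and treated arrays formed separate tight ranges in both genotypes. It rose by 1.75 ± 0.24 (adjusted p = 0.00013) and 1.89 ± 0.24 (0.00027) in wild-type cortex and by 1.63 ± 0.24 (0.0012) and 1.95 ± 0.24 (0.00018) in BRCA1+/- cortex. None of these calls was lost by leaving out an array.

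Col15a1, the related multiplexin, was above background on 1 of the 2 wild-type controls. It read -0.80 and -2.03 there, 2.47, 1.15 and 0.42 after 1 week and 2.19, 1.39 and 1.78 after 3 weeks. Col15a1's BRCA1+/- values were -0.72 and -0.23, then 2.05, 1.11 and 0.99, then 2.49, 2.03 and 3.53. Controls lay below 0 and treated arrays above it throughout. Col15a1 rose by 2.76 ± 0.57 (adjusted p = 0.0025) and 3.20 ± 0.57 (0.0023) in wild-type cortex and by 3.15 ± 0.57 (0.0025) in BRCA1+/- cortex after 3 weeks. After 1 week there its log2 change was 1.86 ± 0.57 (0.064, not called). Both wild-type calls were lost without control replicate 2 (log2 change 2.14 and 2.58, adjusted p = 0.055 and 0.051).

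Col16a1, a fibril-associated collagen, was well above background on none of the 4 controls, on 2 of 3 arrays of each 1-week group and on all 3-week arrays. It read -2.65 and -3.55 in wild-type controls, -0.89, -1.37 and -2.27 after 1 week and -0.27, -0.96 and -0.48 after 3 weeks. The BRCA1+/- cortex read -2.94 and -3.48, then -0.68, -1.63 and -1.76, then 0.77, -0.44 and 0.54. No treated array overlapped its controls, and the 3-week arrays of BRCA1+/- rats lay above the 1-week arrays. Col16a1 passed the filter only through the 3-week groups, so the filter favours a rise there. With controls under background, the treated mean was set against the faintest signal well above background on each control array. Where the gene's own signal on a control array was higher than that, its own signal was used. By this bound Col16a1 was 1.37-fold and 2.62-fold higher in wild-type cortex and 2.86-fold and 8.96-fold higher in BRCA1+/- cortex. The limma adjusted p of the fitted changes were 0.021, 0.0030, 0.029 and 0.00030. The bounds are approximate, since the 1-week means hold an array under background. Bounds of other genes were made the same way. The call in BRCA1+/- cortex after 3 weeks held without each array. In wild-type cortex the calls were lost without any of control replicate 2 or 1-week replicate 1 (log2 change 1.14 to 1.28, adjusted p 0.073 to 0.22) at 1 week and control replicate 2 (log2 change 2.08, adjusted p = 0.059) at 3 weeks, and in BRCA1+/- cortex at 1 week without any of control replicates 1 or 2 or 1-week replicate 1 (log2 change 1.51 to 2.13, adjusted p 0.092 to 0.21). With faint values raised to a detection limit its changes were 0.39 and 1.15 in wild-type cortex and 0.37 in BRCA1+/- cortex after 1 week. None of these was called (adjusted p = 0.51, 0.066 and 0.64), and each was smaller than its bound. After 3 weeks in BRCA1+/- cortex the smallest log2 change under any setting was 0.85, still called.

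Type VI collagen forms beaded microfilaments around cells from the chains of Col6a1, Col6a2 and Col6a3. Col6a1 was above background on 1 of 2 wild-type controls and read -1.09 and -1.39 there, 0.44, -0.97 and -0.68 after 1 week and 1.10, 0.36 and 0.43 after 3 weeks. The BRCA1+/- arrays of Col6a1 read -1.19 and -1.14, then 0.94, 0.28 and -0.15, then 0.82, 1.24 and 1.14. Wild-type 1-week replicate 2 lay just above its controls, and every 3-week array lay well above. The log2 changes of Col6a1 were 0.84 ± 0.40 (adjusted p = 0.14, not called) and 1.87 ± 0.40 (0.0066) in wild-type cortex and 1.52 ± 0.40 (0.032) and 2.23 ± 0.40 (0.0023) in BRCA1+/- cortex. The wild-type call was lost without control replicate 2 (log2 change 1.72, adjusted p = 0.079), and the BRCA1+/- call at 1 week without any of control replicates 1 or 2 or 1-week replicates 1 or 2 (log2 change 1.23 to 1.56, adjusted p 0.055 to 0.18).

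Col6a2 read 0.87 and 0.30 in wild-type controls, 3.36, 1.50 and 1.36 after 1 week and 3.43, 2.00 and 2.71 after 3 weeks, and in BRCA1+/- cortex 1.00 and 1.18, then 3.29, 2.31 and 1.77, then 2.73, 2.58 and 3.57. Treated arrays lay above the controls, with replicate 1 highest in 3 of the 4 treated groups. Its log2 changes were 1.49 ± 0.59 (adjusted p = 0.074, not called) and 2.12 ± 0.59 (0.026) in wild-type cortex and 1.37 ± 0.59 (0.17, not called) and 1.87 ± 0.59 (0.043) in BRCA1+/- cortex. The calls after 3 weeks were lost without any of control replicates 1 or 2 or 3-week replicates 1 or 3 (log2 change 1.77 to 2.41, adjusted p 0.060 to 0.20) in wild-type cortex and any of control replicates 1 or 2 or 3-week replicates 1, 2 or 3 (log2 change 1.57 to 2.06, adjusted p 0.057 to 0.19) in BRCA1+/- cortex.

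Col6a3 read 1.99 and 1.71 in wild-type controls, 3.80, 2.60 and 2.36 after 1 week and 2.98, 2.66 and 2.91 after 3 weeks, and in BRCA1+/- cortex 1.88 and 1.74, then 3.73, 3.45 and 2.79, then 3.10, 2.83 and 3.54. No treated array overlapped its controls. Its log2 changes were 1.07 ± 0.39 (adjusted p = 0.054) and 1.00 ± 0.39 (0.098) in wild-type cortex, neither called. In BRCA1+/- cortex it rose by 1.52 ± 0.39 (0.029) and 1.35 ± 0.39 (0.030). Those calls were lost without any of control replicates 1 or 2 or 1-week replicates 1 or 2 (log2 change 1.31 to 1.59, adjusted p 0.065 to 0.17) at 1 week and any of control replicates 1 or 2 or 3-week replicates 1 or 3 (log2 change 1.16 to 1.42, adjusted p 0.056 to 0.17) at 3 weeks. These values are from 1 of 4 probes past the filter. After 1 week in wild-type cortex the others changed by 1.86, 2.19 and 2.25, then by 1.07, 1.21 and 0.89 after 3 weeks. The BRCA1+/- changes were 1.70, 1.18 and 1.25 after 1 week and 0.69, 0.61 and 0.26 after 3 weeks. With the mean of the probes both wild-type changes were called, at 1.85 (adjusted p = 0.00079) and 1.04 (0.042), as was the BRCA1+/- change after 1 week, at 1.41 (0.016), while that after 3 weeks was not, at 0.73 (0.13). Which comparisons of Col6a3 were called therefore depended on the probe.

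Col6a6 encodes an alternative chain of type VI and had a faint signal in wild-type cortex. It read -0.85 and -0.99 in wild-type controls, -1.42, -3.04 and -2.32 after 1 week and -0.01, -0.41 and -0.18 after 3 weeks. Its BRCA1+/- values were -1.28 and -1.34, then -1.57, -0.31 and -1.61, then -0.79, -0.56 and -0.32. The wild-type 1-week arrays were below and the 3-week arrays above the controls, with background passed on 1 of 2 controls and 1 of 3 1-week arrays. Its change was -1.34 ± 0.43 (adjusted p = 0.031) after 1 week and 0.72 ± 0.43 (0.28, not called) after 3 weeks in wild-type cortex. The BRCA1+/- changes were 0.15 ± 0.43 (0.88) and 0.75 ± 0.43 (0.23), neither called. The wild-type call was lost without any of control replicates 1 or 2 or 1-week replicates 2 or 3 (log2 change -1.41 to -0.95, adjusted p 0.052 to 0.15). It was also lost with faint values raised to a detection limit (-0.70, adjusted p = 0.14) and with normexp (-0.31, 0.057), so background limits this value.

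Col8a1, a network collagen of vessel walls, was above background on no control and no wild-type 1-week array. It read -1.95 and -3.06 in wild-type controls, -3.21, -2.36 and -3.15 after 1 week and -1.31, -2.96 and -1.30 after 3 weeks. Among BRCA1+/- arrays it read -2.87 and -4.23, then -2.84, -4.77 and -3.86, then -1.08, -1.99 and -1.30. The BRCA1+/- 3-week arrays stood above all BRCA1+/- arrays of the other groups. Col8a1 was called higher in BRCA1+/- cortex after 3 weeks (adjusted p = 0.033), with a bound of 2.61-fold, and in no other treatment comparison. It passed the filter only through that group, so the filter favours a rise there and the call is not independent of it. That call was lost without any of control replicate 2 or 3-week replicates 1 or 3 (log2 change 1.42 to 2.02, adjusted p 0.082 to 0.29), and with faint values raised to a detection limit (0.35, adjusted p = 0.22).

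Col20a1, a fibril-associated collagen, read lower on treated arrays with the probe used. It read 2.09 and 2.43 in wild-type controls, 0.90, 1.56 and 2.00 after 1 week and 1.58, 1.37 and 0.99 after 3 weeks. For Col20a1, BRCA1+/- arrays read 2.39 and 2.15, then 1.63, 0.98 and 1.45, then 1.15, 0.93 and 1.30. No treated array reached its controls in either genotype. The change was called in BRCA1+/- cortex after 3 weeks, at -1.14 ± 0.32 (adjusted p = 0.028), and not in the other comparisons, at -0.78, -0.95 and -0.92 (0.090, 0.062 and 0.099). The call was lost without any of control replicates 1 or 2 or 3-week replicates 1, 2 or 3 (log2 change -1.27 to -1.02, adjusted p 0.053 to 0.18). A second probe of Col20a1 past the filter changed by 0.19, -0.49, -0.17 and -0.53. With the mean of both probes the change in BRCA1+/- cortex after 3 weeks was -0.84 (adjusted p = 0.081), no longer called.

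Col6a5 and Col12a1 were tested and called in no treatment comparison. Col6a5, another alternative chain of type VI, was above background on no wild-type control and on all wild-type 3-week arrays. Its bound there was 2.64-fold higher, and the adjusted p of its fitted change 0.051. Col6a5 passed the filter only through that group, so these values are not independent of the filter. The change of Col12a1, which coats fibres, ran from -0.27 to 0.80 on the probe used. Its 3 other probes past the filter changed in wild-type cortex by 1.27, 1.73 and 0.68 after 1 week and by 0.91, 1.21 and 0.23 after 3 weeks. The same 3 changed by 0.30, 0.34 and 0.07 after 1 week in BRCA1+/- cortex and by 0.22, 0.34 and 0.03 after 3 weeks, so no direction is given for Col12a1. Of the 44 collagens, 17 were not tested. Their probes were well above background on at most 7 of 16 arrays, and 6 of them, Col7a1, Col9a3, Col10a1, Col19a1, Col25a1 and Col28a1, on none.

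Markers of other cell types are given beside the collagens as counts. Of 13 markers of fibroblasts, pericytes and myofibroblasts, 11 were tested, of which 5, 2, 2 and 4 rose and none fell. These are 45.5%, 18.2%, 18.2% and 36.4%, against 27.1%, 14.3%, 7.45% and 15.9% of all genes. Pdgfrb (a growth factor receptor of pericytes), Fbln1, Tagln, Acta2 and Cspg4 rose in wild-type cortex after 1 week, and Fbln1 and Pdgfrb after 3 weeks. In BRCA1+/- cortex Fbln1 and Pdgfrb rose after 1 week, and Fbln1, Rgs5, Pdgfrb and Pi16 after 3 weeks. Pdgfrb changed by 2.60 ± 0.29, 2.27 ± 0.29, 1.07 ± 0.29 and 0.92 ± 0.29 in the 4 comparisons. The summed linear signal of the 11 was 21.8 to 21.9 in wild-type controls, 28.3 to 36.3 after 1 week and 28.7 to 32.1 after 3 weeks. The BRCA1+/- arrays summed to 21.1 to 29.7, then 26.3 to 34.3, then 24.4 to 36.6 in controls and after 1 and 3 weeks, with overlap. 1 of the 13 was above background on no array.

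Of 6 tested macrophage markers 6, 5, 4 and 5 rose in the 4 comparisons, or 100%, 83.3%, 66.7% and 83.3%. The shares of all genes called, 27.1%, 14.3%, 7.45% and 15.9%, stand beside these and the lists that follow. The summed macrophage signal was 7.99 to 10.5 over all controls and 22.2 to 71.0 over all treated arrays. Of 10 proximal tubule markers 9, 3, 4 and 4 fell, and 1, Cubn, rose in wild-type cortex after 3 weeks, or 90%, 40%, 40% and 40% called. Their summed signal was 2505 to 3181 in wild-type controls and 155 to 355 after 1 week, and 1876 to 2737 and 433 to 933 in BRCA1+/- cortex. Of 8 endothelial markers tested, Kdr (-1.66) and Tek (-1.25) fell in wild-type cortex after 1 week, while none was called in the other comparisons. The 25% called after 1 week in wild-type cortex was near the 27.1% of all genes. Of 4 mesangial markers tested, 1 rose each time, which was Pdgfrb, and 1, 0, 1 and 2 fell, Sfrp2 among them in each of those 3 comparisons. That is 50%, 25%, 50% and 75% called. Of 4 vascular smooth muscle markers tested, Myh11 and Des rose in both wild-type comparisons, and none was called in BRCA1+/- cortex (50%, 50%, 0% and 0%). Of the 4, 2 were under background in wild-type controls. The summed signal of the 4 was 27.2 to 32.0 in wild-type controls, 22.5 to 61.3 after 1 week and 20.9 to 30.4 after 3 weeks, with overlap. In BRCA1+/- cortex it was 44.8 to 74.5, then 17.9 to 47.2, then 20.9 to 43.1. The part of these shifts in the collagen results was not tested.

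The machinery around collagen was checked by lists. The shares of all genes called, 27.1%, 14.3%, 7.45% and 15.9% in the order above, stand beside each. For synthesis and folding 19 of 23 genes were tested, of which 21.1%, 26.3%, 5.26% and 21.1% were called, below the share of all genes in both 1-week comparisons. In wild-type cortex Serpinh1 (the collagen chaperone HSP47) and Colgalt1 rose and Mia2 and Tmem38b fell after 1 week, and Plod1, P3h4, Plod3, Serpinh1 and P3h1 rose after 3 weeks. In BRCA1+/- cortex P3h4 rose after 1 week, and P3h4, P3h1, Plod1 and Plod3 after 3 weeks. Plod and P3h genes encode enzymes and partners that hydroxylate collagen lysines and prolines. P3h4 changed by 3.35 ± 0.41 in BRCA1+/- cortex after 3 weeks (adjusted p = 0.00015) and Serpinh1 by 1.78 ± 0.30 in wild-type cortex after 1 week (0.00050). Plod1, under background in wild-type controls, had a bound of 2.62-fold higher after 3 weeks. The medians of the 19 were 0.61, 0.42, 0.45 and 0.62.

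For genes that trim and crosslink collagen outside the cell, the list has 14 genes and 10 were tested, of which 6, 6, 5 and 6 rose, and Tgm2 fell in wild-type cortex after 1 week (-1.23 ± 0.31). Those are 70%, 60%, 50% and 60% called. The 5 in BRCA1+/- cortex after 1 week were Loxl2, Bmp1, Loxl1, Loxl4 and Lox, and Pcolce joined them in the other comparisons. Bmp1, the protease that cuts the end of procollagen, rose by 2.26 ± 0.34, 2.89 ± 0.34, 1.69 ± 0.34 and 2.28 ± 0.34. The lysyl oxidases join chains into stable fibres. Loxl2 had bounds of 4.02- and 2.7-fold higher in wild-type cortex, where controls were under background. It rose by 1.91 ± 0.34 and 1.84 ± 0.34 in BRCA1+/- cortex. Loxl4, under background in all controls, had bounds of 3.35-, 4.38-, 3.4- and 5.43-fold higher. It passed the filter only through treated groups, so the filter favours its rise and these values are not independent of it. In the order above, 4, 4, 2 and 2 of the 10 were under background in the controls and had bounds. The medians of the 10 were 1.77, 1.93, 1.73 and 1.65, or 1.51, 1.43, 1.64 and 1.47 with genes under background in the controls at their bound.

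Among proteoglycans and proteins that bind fibres, 11 of 16 were tested, and 3, 6, 4 and 6 rose, or 27.3%, 54.5%, 36.4% and 54.5%, which in wild-type cortex after 1 week is near the share of all genes. Those called after 1 week were Fn1, Tnc and Sparc in wild-type cortex and Fn1, Dcn, Tnc and Sparc in BRCA1+/- cortex. Fn1, the gene of fibronectin, on which new fibres are laid, rose by 3.37 ± 0.47, 2.94 ± 0.47, 3.14 ± 0.47 and 4.32 ± 0.47. Sparc, a collagen-binding matrix protein, rose by 0.96 ± 0.30, 1.78 ± 0.30, 1.09 ± 0.30 and 1.46 ± 0.30. Thbs1, the gene of thrombospondin, was called after 3 weeks, at 0.89 ± 0.24 in wild-type and 1.83 ± 0.24 in BRCA1+/- cortex.

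The list of partners of type IV collagen in basement membranes has 19 genes and 15 were tested. Of these 9, 7, 3 and 6 rose and none fell, or 60%, 46.7%, 20% and 40%. Those called in BRCA1+/- cortex after 1 week included Lamb2, a laminin chain, and Pxdn. Pxdn, the peroxidasin that crosslinks type IV networks, rose by 2.47 ± 0.44, 2.68 ± 0.44, 1.53 ± 0.44 and 2.96 ± 0.44. Nid2, a nidogen that links laminin to type IV collagen, had bounds of 2.61- and 2.48-fold higher in wild-type cortex.

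Of 6 collagen receptors tested among 11, Mrc2 and Adgrg6 rose in both wild-type comparisons, none in BRCA1+/- cortex after 1 week, and Adgrg6 and Itgb1 after 3 weeks, or 33.3%, 33.3%, 0% and 33.3% called. Mrc2, which takes up collagen fragments, rose by 1.97 ± 0.35 and 1.30 ± 0.35 in wild-type cortex, and its log2 changes were 0.64 ± 0.35 and 0.42 ± 0.35 in BRCA1+/- cortex, neither called. Of 14 genes of collagen breakdown 9 were tested, and of these 4, 5, 3 and 5 rose. With the genes that fell, 66.7%, 66.7%, 33.3% and 66.7% were called. The rising genes were Timp1, Mmp2, Mmp14 and Timp2 after 1 week in wild-type cortex, with Ctsk added after 3 weeks. They were Timp1, Mmp2 and Ctsk after 1 week in BRCA1+/- cortex, and Timp1, Mmp2, Ctsk, Mmp14 and Timp2 after 3 weeks. Timp1, an inhibitor of matrix proteases, rose by 2.82 ± 0.40, 2.23 ± 0.40, 2.52 ± 0.40 and 3.08 ± 0.40. Pepd, which splits proline dipeptides left from collagen, fell in wild-type cortex (-2.92 ± 0.38 and -1.45 ± 0.38) and in BRCA1+/- cortex after 3 weeks (-1.79 ± 0.38), and Timp3 fell in wild-type cortex after 1 week (-1.52 ± 0.27). Mmp2, the gelatinase, had bounds of 3.8- and 9.83-fold higher in wild-type cortex and rose by 2.00 ± 0.49 and 3.12 ± 0.49 in BRCA1+/- cortex.

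Between 3 weeks and 1 week few collagens were called, which does not show that the times were alike. In wild-type cortex 1 of 27 (3.7%) was called, where 8.33% of all genes were (5.55% higher and 2.78% lower). It was Col6a6, above background on 1 of 3 1-week arrays, higher at 3 weeks by 2.06 ± 0.38 (adjusted p = 0.0048). The median of the 27 was 0.34, against 0.04 over all genes. In BRCA1+/- cortex limma called none of the 27, where it called 0.306% of all genes (0.187% higher and 0.119% lower), and 9 (33.3%) had an unadjusted p under 0.05, as did 11.7% of all genes. There the median of the 27 was 0.50, against 0.05 over all genes. The smallest adjusted p was that of Col8a1, at 2.37 ± 0.55 (0.087), followed by Col16a1 at 1.65 ± 0.42 (0.12). The changes of Col1a1 between the times were 0.11 (95% interval -0.92 to 1.15) in wild-type and 0.71 (-0.33 to 1.74) in BRCA1+/- cortex. Those of Col4a4 were 0.88 (0.11 to 1.65) and -0.89 (-1.66 to -0.12), higher at 3 weeks in wild-type and lower in BRCA1+/- cortex, neither called. Without wild-type 1-week replicate 1 the wild-type count was 3, and without BRCA1+/- 1-week replicate 1 the BRCA1+/- count was 1.

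Between genotypes no collagen was called. In untreated cortex limma called 0 of 27 collagens and 0% of all genes, and 1 collagen (3.7%), Col5a3, had an unadjusted p under 0.05, as did 4.67% of all genes. After 1 week it called 0 of 27, where 0.562% of all genes were called (0.493% higher and 0.0687% lower). An unadjusted p under 0.05 was found for 3 (11.1%), and for 12.6% of all genes. Those were Col4a4, at 1.34 (95% interval 0.57 to 2.11, adjusted p = 0.11), Col4a3, at 1.16 (0.49 to 1.83, 0.11), and Col6a6, at 1.10 (0.28 to 1.92, 0.24), each higher in BRCA1+/- cortex. Every BRCA1+/- 1-week array lay above every wild-type 1-week array for Col4a3 and Col4a4. The share of all genes that separate this way is not given, so this does not single out these genes. After 3 weeks 0 of 27 and 0% of all genes were called, and 3 collagens, Col11a2, Col6a5 and Col2a1, had an unadjusted p under 0.05 (11.1%, against 5.82% of all genes). Without BRCA1+/- 1-week replicate 3 limma called 1 collagen at 1 week.

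The change under Fe-NTA was also compared between genotypes, as the BRCA1+/- change minus the wild-type change. Limma called 0 of 27 collagens and 0% of all genes at 1 and at 3 weeks, and 4 and 3 collagens had an unadjusted p under 0.05 (14.8% and 11.1%, against 7.63% and 4.74% of all genes). At 1 week the difference was 1.47 for Col4a4 (95% interval 0.26 to 2.69, adjusted p = 0.54) and 1.24 for Col4a3 (0.18 to 2.30, 0.56), a smaller fall in BRCA1+/- cortex. At 3 weeks it was -0.30 (-1.52 to 0.92) and -0.16 (-1.22 to 0.90). The difference for Col1a1 was -0.68 (-2.32 to 0.96) at 1 week and -0.09 (-1.72 to 1.55) at 3 weeks, and for Col18a1 -0.13 (-0.86 to 0.61) and 0.06 (-0.67 to 0.79). The intervals reached 0.73 to either side of the estimate for the most precise collagen and 2.20 for the least, with a median of 1.22. A missed threshold at this width does not show that the genotypes respond alike.

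**Figure D5:**
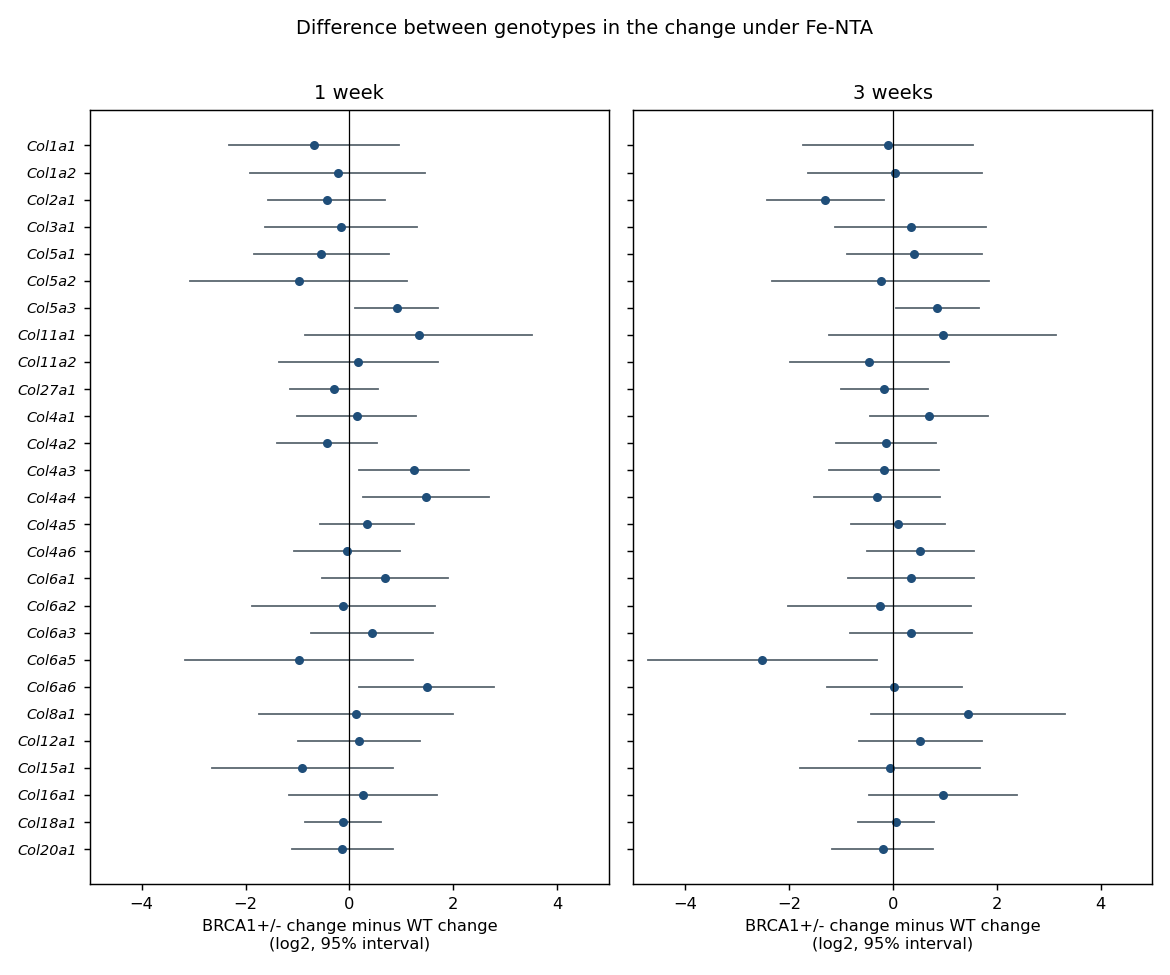
BRCA1+/- change minus wild-type (WT) change under Fe-NTA for each of the 27 tested collagens (vertical axis), as a log2 difference with its unadjusted 95% interval, at 1 week (left) and 3 weeks (right). Intervals of 23 collagens at 1 week and 24 at 3 weeks include 0; those of Col4a3 and Col4a4 lie above 0 at 1 week and include it at 3 weeks.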

How the data were processed

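Per the labels, RNA of rat kidney cortex was hybridised to single-colour Agilent arrays, 1 sample an array. Agilent Feature Extraction 10.7 is named in the submitters' processing notes. The deposited intensity is the scanner software's processed signal, which it background-corrected, per the file headers; the deposited flags well above background and saturated are yes-or-no values. The authors' deposited log2 value table equalled log2 of that signal minus each array's 75th percentile, up to a constant per array, and served as an alternative.

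Control spots were left out (4259 of 62976 spots), as were spots that the scanner software flagged as outliers (317 to 491 an array). The remaining spots of a probe were averaged. The signal was scaled the same way. A probe with a value on all 16 arrays was kept when some group had it well above background on all its arrays. Of a gene's probes past the filter, the one with the highest mean over all arrays was used. One limma 3.58.1 model (lmFit, eBayes, R 4.3.3) over the 16 arrays held the 6 groups; p-values were adjusted by Benjamini-Hochberg over 16023 genes, and 95% intervals are per gene and unadjusted. The scripts were tested on simulated data. With 2 or 3 arrays a group, the number of arrays limits the precision.

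Values on every array are given for Col1a1, Col1a2, Col3a1, the 6 type IV genes, Col18a1 and up to 14 others with the largest changes among those called without overlap against controls; genes whose probes were compared and other members named for a single value were chosen after their values were seen. Of each partner list, genes in counts of 5 or fewer were named, and the 3 with the smallest p; any others were chosen after their values were seen. The members, lists and tests were chosen with earlier results of these data known. Leaving out arrays was run for collagens, not for the other lists. The RefSeq promoter table (GRCr8) matched 35 of the 44 collagens by symbol. A few marker and partner genes are not reported here.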

Additional observations from a re-analysis of the deposited data

How the results depend on the processing

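The counts of called collagens (13, 15, 10 and 17 in wild-type cortex after 1 and 3 weeks and BRCA1+/- cortex after 1 and 3 weeks, each against the untreated controls of the genotype, 1 and 0 between 3 weeks and 1 week in wild-type and BRCA1+/- cortex, 0 between genotypes) moved by over 1.5 times as follows. Leaving out each array of the groups compared gave 6 to 15, 5 to 15, 3 to 9 and 10 to 15 in the 4 treatment comparisons, 1 to 3 and 0 to 1 between times, and 0 to 1 between genotypes after 1 week. Within slide 1, 6, 4, 0 and 2 were called against controls and 0 between times in wild-type cortex. Within slide 2, 0, 0, 0 and 4 were called, and 0 between times. These fits hold fewer arrays, 1 or 2 a group. With no filter on dim probes 8 were called in wild-type cortex after 1 week, 6 in BRCA1+/- cortex after 1 week (4 higher and 2 lower) and 1 between times in BRCA1+/- cortex. A fit of only the groups compared gave 8 after 1 week in wild-type cortex. Array weights gave 3 and the replicate block 2 between times in BRCA1+/- cortex. The cause of these shifts was not tested.

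With the replicate block the counts were otherwise 15, 15, 11 and 17 against controls, 1 between times in wild-type cortex and 0 between genotypes. The labels do not say whether replicate numbers pair samples of different groups. Of 36 same-numbered pairs 8 had deviations correlated over 0.1, and r ran from -0.34 to 0.45. This does not settle pairing, since pairs of different numbers were not compared. Of 989 values of the 55 called changes under alternatives, 762 stayed called in their direction, 227 kept direction without the call and 0 reversed. These counts include the authors' value table, which equals the values used up to a constant per array and is no independent check.

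Values that reversed belonged to changes not called. Col4a5 in wild-type cortex after 1 week was -0.31 within slide 2, -0.016 with array weights, and from -0.067 to 0.25 when each array was left out in turn (-0.0076 without 1-week replicate 3), and after 3 weeks in BRCA1+/- cortex -0.054 within slide 1. Col8a1 in wild-type cortex after 1 week ran from -0.95 to 0.15 when each array was left out, highest without control replicate 1, and in BRCA1+/- cortex after 1 week 0.031 within slide 1 and from -0.95 to 0.41 when each array was left out (0.41 without control replicate 1 and 0.20 without 1-week replicate 2). In BRCA1+/- cortex after 1 week Col6a6 was -0.28 within slide 1 and from -0.28 (without 1-week replicate 2) to 0.38 when each array was left out, and Col5a3 -0.21 within slide 1. Arrays set a limit at faint signal: 19 of the 27 tested collagens were well above background on all 16 arrays.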
